A study of Mus musculus with 9 samples.

Results

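CD11b+ bone marrow cells of mice that received EnzR EVs together with HDL NPs were compared with those of mice that received PBS. The comparison holds 6 of the 9 libraries of the study, 3 per group, each from a different male C57BL/6 mouse, and 12287 of the 23337 genes in the count files passed the filter on low counts and were tested. EnzR EVs are extracellular vesicles released by CWR-R1 cells, a human prostate cancer line grown resistant to the androgen receptor inhibitor enzalutamide. HDL NPs are synthetic high-density lipoprotein-like particles with a gold core, phospholipids and apolipoprotein A-1, and they bind the receptor SCARB1 and take part in cholesterol exchange with cells. EnzR EVs (10 µg of vesicle protein in 100 µl) or PBS entered by the tail vein on days 1, 3 and 5, and the HDL NPs on days 0, 2 and 4. The labels give the HDL NPs at 1 µM and the study's methods state a different concentration, so the dose is uncertain. CD11b, encoded by Itgam, marks granulocytes and monocytes, and the cells were selected from the marrow by beads to this protein. A group with HDL NPs alone was not analysed here, and the PBS mice had fewer injections, so the effects of the vesicles, the particles and the extra injections cannot be told apart in this comparison.

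The PBS libraries held 6006087, 16381679 and 15972757 counts and those of EnzR EVs plus HDL NPs 15602936, 16611934 and 13231038. PBS 1 stood apart: the ribosomal RNA precursor Rn45s took 20.3% of its counts, against 0.657% to 2.87% in the other 5 libraries of this comparison. Values without PBS 1 are therefore given beside many, but not all, of the results that it moves. A result without such a value can still depend on PBS 1. Levels below are CPM, read counts scaled to a common library total and then by TMM factors, which correct for differences in library composition. Folds are log2 differences, EnzR EVs plus HDL NPs minus PBS, with the standard error (SE) of the edgeR fit. Itgam stood at 1476 to 1963 CPM with PBS and 1663 to 2112 CPM with EnzR EVs plus HDL NPs, and the granulocyte gene Ltf at 13030 to 18910 and 14900 to 22670 CPM, so the gene that defines the selection was high in every library. Cd3e, which defines T cells, did not reach the filter on low counts, and the B cell gene Cd79a stayed between 1.57 and 3.37 CPM in all 6 libraries.

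Many genes discussed below belong to the interferon response. Interferons bind receptors that activate JAK kinases, which phosphorylate STAT proteins. These enter the nucleus, with IRF9 in the type I response, and switch on interferon-stimulated genes (ISGs), whose products sense viral nucleic acid, block viral replication, attack the vacuoles of intracellular pathogens and aid antigen presentation. The complex of STAT proteins with IRF9, and the IRF proteins themselves, recognise a DNA element called the ISRE, and myeloid cells of the marrow are known to carry out this response.

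The letters at the core of the ISRE (GAAA, any 2 bases and GAAA again, searched on both strands) were looked for in the 250 bases before the RefSeq start of each gene, on GRCm38.p6. Of the 51 genes that DESeq2 called higher (below), 38 had a promoter entry, and 24 of these (63.2%) held the core. The core was present in 328 of 9772 tested genes with an entry (3.36%) and in 0 of 6 genes called lower. With 100 bases in place of 250 the shares were 44.7% of the genes called higher and 1.28% of tested genes. For comparison, the letters of an NF-kB site (GGGAC followed directly by TTTCC) were in 0 of the 38 and 0.215% of tested genes, and those of an AP-1 site (TGACTCA) in 7 of the 38 (18.4%) and 3.98% of tested genes. Several of these promoters are near copies within gene families, so they are not independent, and a match is a description of the letters, not of factor binding. The stretches below, 5′ to 3′ on the gene's own strand with the core or its reverse complement in capitals, show the element in antiviral effectors, interferon-induced GTPases and the signalling gene Stat2. They lie within the 250 bases before the start.
Ifit1, chr19:34640784-34640833, plus strand: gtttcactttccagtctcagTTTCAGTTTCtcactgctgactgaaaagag
Ifit3, chr19:34583387-34583436, plus strand: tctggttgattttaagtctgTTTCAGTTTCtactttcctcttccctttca
I830012O16Rik, chr19:34607783-34607832, plus strand: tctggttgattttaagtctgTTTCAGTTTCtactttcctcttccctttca
Rsad2, chr12:26456543-26456592, minus strand: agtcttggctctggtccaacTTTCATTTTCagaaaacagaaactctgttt
Oas3, chr5:120777705-120777754, minus strand: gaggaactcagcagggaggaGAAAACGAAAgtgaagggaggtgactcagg
Gbp5, chr3:142496749-142496798, plus strand: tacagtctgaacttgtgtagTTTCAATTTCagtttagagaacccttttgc
Gbp7, chr3:142530263-142530312, plus strand: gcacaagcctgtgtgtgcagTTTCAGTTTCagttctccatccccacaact
Gm12250, chr11:58183777-58183826, plus strand: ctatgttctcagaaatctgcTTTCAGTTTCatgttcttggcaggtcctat
Igtp, chr11:58199502-58199551, plus strand: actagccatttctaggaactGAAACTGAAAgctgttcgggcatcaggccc
Irgm2, chr11:58214893-58214942, plus strand: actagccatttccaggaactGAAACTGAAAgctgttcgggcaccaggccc
Stat2, chr10:128270256-128270305, plus strand: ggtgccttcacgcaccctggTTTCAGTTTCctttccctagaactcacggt

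The stretches of Ifit3 and I830012O16Rik, an older symbol for Ifit3b, are identical, and those of the neighbouring genes Igtp and Irgm2 nearly so. Ifit1 lies in the same cluster on chromosome 19 and Igtp, Irgm2 and Gm12250 share a cluster on chromosome 11.

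Across all tested genes, edgeR's quasi-likelihood test called 0 genes at an adjusted p under 0.05 (percent called 0), with a smallest adjusted p of 0.27. At an unadjusted p under 0.05 it held 597 genes (4.86%), 265 higher (2.16%) and 332 lower (2.7%) with EnzR EVs plus HDL NPs. DESeq2, the tool the study used, called 58 of 17392 genes on the same 6 libraries (0.333%), 51 higher (0.293%) and 7 lower (0.0402%), while limma voom called 0. DESeq2 called 74 genes without PBS 1 (0.435%), with 55 of the 58 among them, 33 without PBS 3, and 27 and 22 without EnzR EV + HDL NP replicates 1 and 3. With all 9 libraries in the fit DESeq2 called 2 genes and edgeR 0, and the biological coefficient of variation was 0.259, against 0.202 with 6. The rest of the text therefore names the tool wherever a gene is called, and says higher or lower, with the count at an unadjusted p, for groups of genes. An exact permutation test of a single gene in 3 against 3 mice cannot go below p = 0.10.

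**Figure D1:**
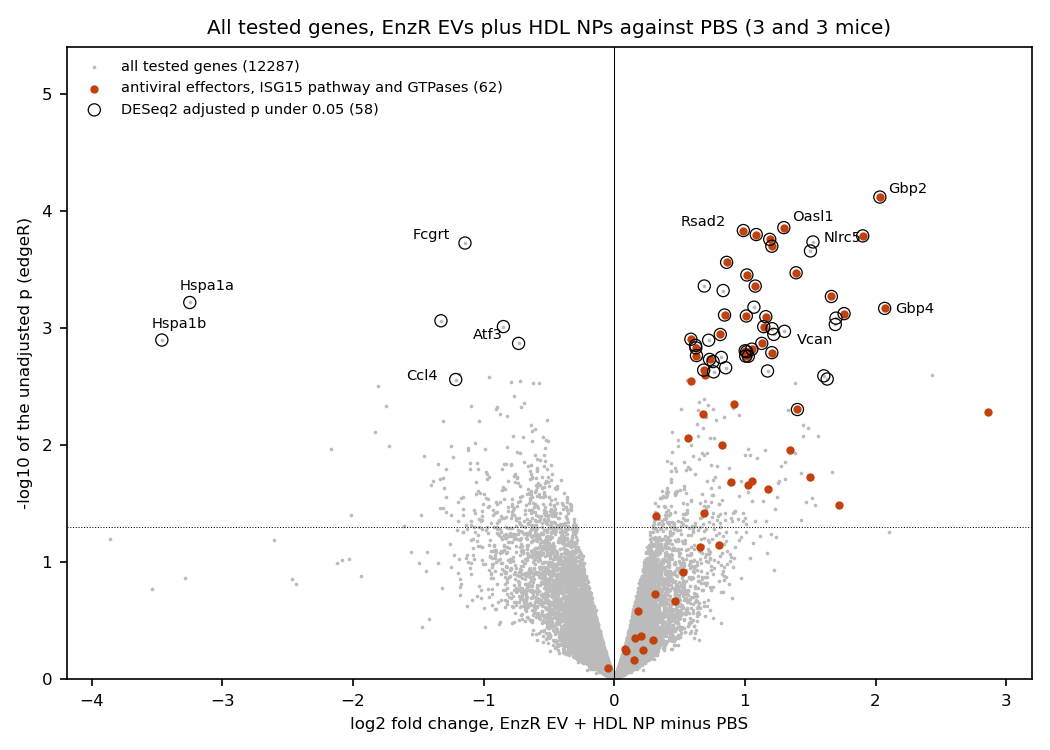
Each point is a tested gene, with the log2 difference between EnzR EVs plus HDL NPs and PBS on the x axis and −log10 of the unadjusted edgeR p on the y axis, with a dotted line at 0.05. The 62 tested antiviral effectors, ISG15 pathway genes and GTPases (filled) lie to the right of 0 with 1 exception, and the 58 genes called by DESeq2 (circles) lie at the top on both sides.

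Of the 51 genes called higher by DESeq2, 40 were in the lists of interferon or MHC genes described below. Of the others, 10 were in no list, among them Slfn4 and Gm12250, and the remaining one was Vcan. DESeq2 called 32 of the 62 tested antiviral effectors, ISG15 pathway genes and GTPases higher, against 51 of all 12287 tested genes. The lists were written with earlier results of these data known. Cfb, complement factor B, measured 2.80, 6.54 and 6.91 CPM with PBS and 25.2, 11.7 and 18.1 CPM with the treatment (log2 difference 1.69, SE 0.35). Cd274, the checkpoint ligand PD-L1, measured 4.30, 9.82 and 10.3 CPM and 20.01, 16.6 and 20.3 CPM (log2 difference 1.17, SE 0.28). PBS 1 was the lowest mouse for both, and without it the differences were 1.46 and 0.92. Myof, a membrane repair protein, measured 16.6, 13.03 and 10.6 CPM and 32.2, 22.6 and 28.7 CPM (log2 difference 1.07, SE 0.21). These 3 were picked after their values were seen. All 58 called genes had libraries that did not overlap between the groups, as 13.2% of tested genes did (7.04% higher and 6.18% lower).

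**Figure D2:**
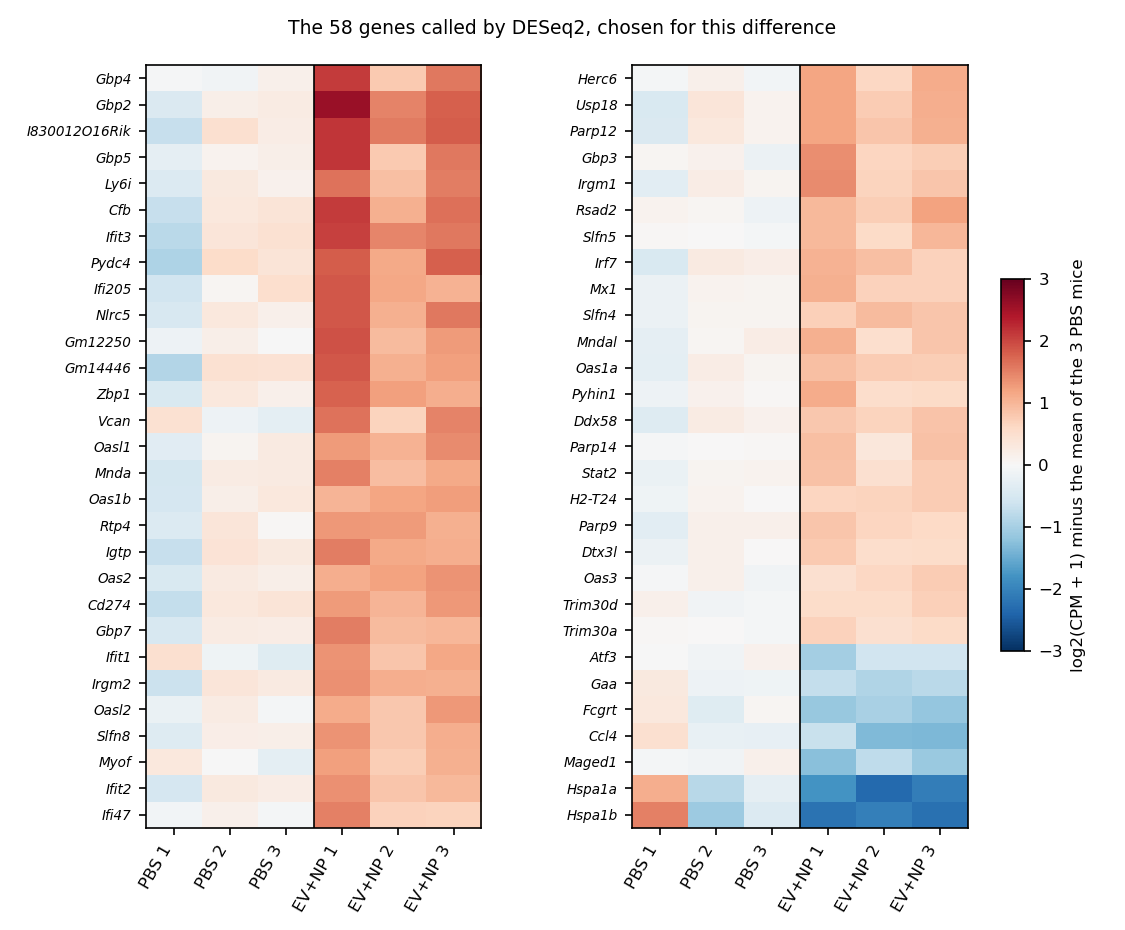
Rows are the 58 genes called by DESeq2, which were chosen for this difference, and columns the 6 mice, with colour for log2(CPM + 1) minus the mean of the PBS mice. EV+NP stands for EnzR EVs plus HDL NPs, and 7 genes at the foot of the right panel are lower.

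The genes at the start of the response were read first. Of 35 tested interferon sensing and signalling genes, 13 were higher and 0 lower at an unadjusted p under 0.05, DESeq2 called 6 higher, and the median log2 difference was 0.17, against -0.01 over all tested genes. Ifnar1, a chain of the type I interferon receptor, differed by -0.03 (SE 0.12) on the log2 scale. The kinase Jak1 differed by 0.22 (SE 0.18), or 0.07 without PBS 1.

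The transcription factors stood higher. Stat2 measured 41.1, 50.4 and 51.2 CPM with PBS and 88.3, 66.9 and 80.7 CPM with EnzR EVs plus HDL NPs, and the groups did not overlap. Its log2 difference was 0.72 (SE 0.16, DESeq2 adjusted p = 0.0209). Irf7, the factor that amplifies type I interferon production, measured 42.1, 70.2 and 66.5 CPM with PBS and 121.1, 109.2 and 93.8 CPM with the treatment (log2 difference 0.85, SE 0.20, DESeq2 adjusted p = 0.0275). PBS 1 was the lowest of the PBS mice for both of these factors, and without it the log2 differences were 0.64 for Stat2 and 0.67 for Irf7.

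Among the sensors, Mnda and Mndal, members of the family that binds DNA in the nucleus, were called by DESeq2, as were their relative Ifi205 and the RNA sensor Ddx58. Mnda measured 5.23, 9.57 and 9.86 CPM with PBS and 24.5, 15.9 and 18.7 CPM with the treatment, a log2 difference of 1.22 (SE 0.26). Mndal, 38.0 ± 6.48 CPM with PBS and 67.2 ± 12.9 CPM with the treatment (SD), differed by 0.82 (SE 0.19). Ifi205 differed by 1.60 (SE 0.39, DESeq2 adjusted p = 0.0275) at a level of 0.935 to 9.41 CPM. Ddx58, which senses viral RNA in the cytoplasm, measured 77.01, 119.1 and 110.8 CPM with PBS and 175.8, 159.3 and 184.2 CPM with the treatment, a log2 difference of 0.76 (SE 0.18, DESeq2 adjusted p = 0.0275). Dhx58, a regulator of the RNA sensors, differed by 0.67 (SE 0.15) and missed the DESeq2 threshold (adjusted p = 0.0505).

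The antiviral effectors formed the longest run of higher genes. Of 41 tested members 31 were higher at an unadjusted p under 0.05 and 0 lower, all 41 had a positive log2 difference, as 48.5% of tested genes did, and DESeq2 called 21. Their median log2 difference was 0.81, or 0.69 without PBS 1. The list is one of genes known to respond to interferon, was written with earlier results of these data known, and holds close copies (Oas1, Ifit3 and Parp families) that can share reads, so its members are not independent.

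Oasl1, which restrains translation of Irf7 mRNA, measured 6.73, 9.27 and 10.7 CPM with PBS and 22.6, 19.1 and 25.1 CPM with EnzR EVs plus HDL NPs. The lowest treated mouse stood above the highest PBS mouse, and the log2 difference was 1.30 (SE 0.21, DESeq2 adjusted p = 7.45e-05, edgeR adjusted p = 0.27). Rsad2 (viperin, an enzyme that makes a chain terminator of viral RNA synthesis) measured 75.3, 72.0 and 62.2 CPM with PBS and 137.0, 116.3 and 162.0 CPM with the treatment. Here PBS 1 was not the lowest of the PBS mice, and the log2 difference of 0.99 (SE 0.16) was 1.05 without it. Oas2, which makes the 2-5A messenger that activates RNase L, measured 32.9, 54.8 and 51.5 CPM with PBS and 96.9, 105.9 and 116.5 CPM with the treatment, a log2 difference of 1.19 (SE 0.20).

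The Ifit genes, whose proteins bind viral RNA that lacks the host cap, were all higher. Ifit3 measured 5.42, 13.6 and 14.4 CPM with PBS and 45.8, 30.2 and 33.1 CPM with the treatment (log2 difference 1.66, SE 0.32, DESeq2 adjusted p = 0.000114). Its near-identical neighbour I830012O16Rik measured 2.62, 7.09 and 5.77 CPM and 24.9, 16.2 and 19.6 CPM (log2 difference 1.90, SE 0.31), and the counting of reads that match both is not known. Ifit1 measured 25.6, 16.6 and 13.9 CPM with PBS and 47.3, 33.2 and 41.8 CPM with the treatment, and Ifit2 29.9 ± 8.62 CPM and 62.6 ± 12.96 CPM (SD). For Ifit1 the highest PBS mouse was PBS 1, whereas for the other Ifit genes it was the lowest.

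Zbp1, a sensor of Z-form nucleic acid that can trigger cell death, measured 11.6, 20.6 and 18.2 CPM with PBS and 58.3, 39.4 and 36.1 CPM with the treatment (log2 difference 1.39, SE 0.25). Mx1, a GTPase that blocks incoming viral nucleocapsids and is defective in this mouse strain, measured 17.0, 21.0 and 20.6 CPM and 41.7, 31.9 and 32.0 CPM, a log2 difference of 0.84 (SE 0.17). Rtp4 (log2 difference 1.21, SE 0.20), Oasl2 (1.09, SE 0.18) and Slfn5 (0.86, SE 0.15) followed the same pattern. Slfn4, a Schlafen gene of myeloid cells outside the list, measured 825.5, 996.4 and 992.1 CPM with PBS and 1543, 1797 and 1675 CPM with the treatment (log2 difference 0.83, SE 0.16, DESeq2 adjusted p = 7.45e-05). Samd9l, at 291.8, 651.9 and 634.4 CPM with PBS and 888.3, 934.8 and 715.2 CPM with the treatment, was called by no tool on these 6 libraries. PBS 1 lay far below the other PBS mice, and the log2 difference of 0.68 (SE 0.28) was 0.40 without it.

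**Figure D3:**
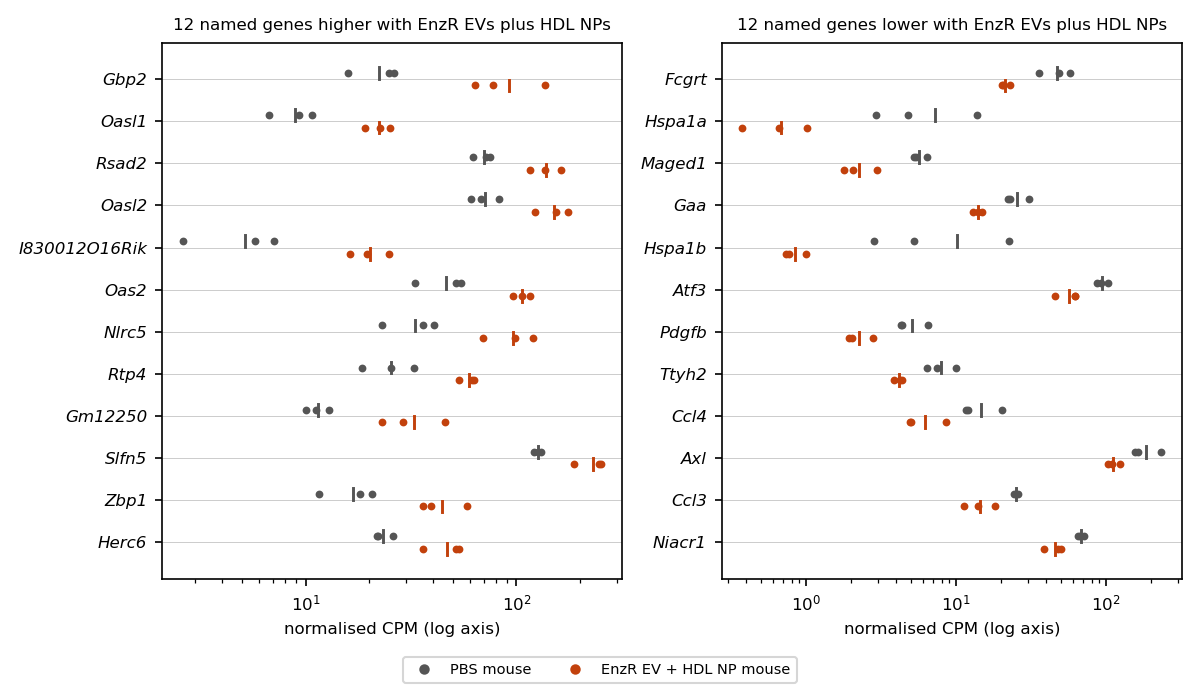
Points are single mice on a log axis of normalised CPM and short bars are group means, for the 12 higher and 12 lower genes with the smallest unadjusted edgeR p among genes whose groups do not overlap and whose higher group averages at least 5 CPM. Genes were picked for this difference, so the separation of the points describes them and does not test it.

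Interferon-induced GTPases, which coat and break the vacuoles of intracellular pathogens, held the largest median of the lists examined. Of 15 tested members 14 were higher at an unadjusted p under 0.05 and 0 lower, DESeq2 called 9, and 14 did not overlap between the groups, as 7.04% of tested genes did in this direction. Their median log2 difference was 1.21, or 1.04 without PBS 1. The core letters of the ISRE were in 9 of the 10 with a promoter entry (90.0%).

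Gbp2 (chr3:142620602-142638008, plus strand, GENCODE M21 on GRCm38) had the smallest p of all genes. It measured 15.9, 24.96 and 26.3 CPM with PBS and 136.2, 63.5 and 77.8 CPM with EnzR EVs plus HDL NPs. The lowest treated mouse was well above the highest PBS mouse, and the log2 difference was 2.03 (SE 0.30, DESeq2 adjusted p = 8.56e-08, edgeR adjusted p = 0.27), or 1.86 without PBS 1. Gbp5 measured 3.36, 4.67 and 4.99 CPM with PBS and 22.4, 8.09 and 14.7 CPM with the treatment (log2 difference 1.76, SE 0.36), and Gbp7 29.0, 48.8 and 48.2 CPM and 120.8, 79.8 and 82.4 CPM (log2 difference 1.16, SE 0.24). Gbp4 differed by 2.07 (SE 0.41) at a level of 1.39 to 10.1 CPM. In all 4 of these genes the first treated mouse was the highest of the 6. Gm12250, an immunity-related GTPase-like gene outside the list, measured 10.1, 12.9 and 11.2 CPM with PBS and 45.7, 23.03 and 28.9 CPM with the treatment (log2 difference 1.502, SE 0.256).

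The ISG15 pathway attaches the ubiquitin-like protein ISG15 to other proteins. Of its 6 tested genes 3 were higher and 0 lower at an unadjusted p under 0.05, and DESeq2 called Herc6, the ligase, and Usp18, the protease that removes ISG15 and dampens the receptor. Herc6 measured 22.1, 26.1 and 21.7 CPM with PBS and 53.6, 36.2 and 51.5 CPM with the treatment (log2 difference 1.01, SE 0.18). Usp18 differed by 1.01 (SE 0.23) and the activating enzyme Uba7 by 0.59 (SE 0.15). Isg15 itself measured 13.3, 6.73 and 4.75 CPM with PBS and 11.4, 9.79 and 20.1 CPM with the treatment. The groups overlapped, because PBS 1 stood above 2 of the treated mice. The log2 difference of 0.80 (SE 0.39) was 1.26 without PBS 1, where DESeq2 called Isg15 (adjusted p = 0.0140). With 1 library left out in edgeR it ran from 0.42 to 1.26.

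Of 20 tested class I and antigen processing genes 3 were higher and 0 lower at an unadjusted p under 0.05, with 5 higher without PBS 1, and the median log2 difference was 0.22. Nlrc5, the transactivator of MHC class I genes, measured 22.99, 40.5 and 36.2 CPM with PBS and 120.5, 69.3 and 98.2 CPM with the treatment, a log2 difference of 1.52 (SE 0.25, DESeq2 adjusted p = 2.57e-05). H2-T24, a class I-like gene, measured 91.2, 108.1 and 100.7 CPM and 155.8, 159.0 and 169.2 CPM (log2 difference 0.69, SE 0.13). The classical chain H2-D1 differed by -0.07 (SE 0.17) and the peptide transporter Tap1 by 0.35 (SE 0.14). Of 10 MHC class II genes 0 passed in either direction, and Cd74, the invariant chain, differed by 0.02 (SE 0.19), with a negative sign in 4 of its 25 alternatives.

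Chemokines stood in both directions. Of 11 tested, 2 were higher and 4 lower at an unadjusted p under 0.05. The higher pair were the interferon-induced ligands of CXCR3, Cxcl10 at 1.68, 2.48 and 3.49 CPM with PBS and 9.65, 4.27 and 6.34 CPM with the treatment (log2 difference 1.33, SE 0.36), and Cxcl9 (1.67, SE 0.57). The difference of Cxcl9 ran from 0.97 to 2.02 with 1 library left out in edgeR. No tool called either gene on these 6 libraries. The lower ones were the inflammatory chemokines Ccl2, Ccl3, Ccl4 and Cxcl2. Ccl4, which attracts monocytes and T cells, measured 20.2, 11.9 and 11.7 CPM with PBS and 8.53, 5.02 and 4.94 CPM with the treatment. Its log2 difference was -1.21 (SE 0.30, DESeq2 adjusted p = 0.0294), or -0.92 without PBS 1, where DESeq2 no longer called it (adjusted p = 0.148). Its neighbour Ccl3 measured 24.3, 25.02 and 25.9 CPM and 18.3, 13.9 and 11.3 CPM (log2 difference -0.79, SE 0.20, DESeq2 adjusted p = 0.0886).

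NF-kB is the factor behind many inflammatory genes of myeloid cells. Of 36 tested targets and feedback genes 0 were higher and 2 lower at an unadjusted p under 0.05, and the median log2 difference was -0.08. The 2 were Tnfaip3, a deubiquitinase that restrains the pathway, with 86.7, 67.1 and 69.9 CPM with PBS and 52.4, 48.7 and 54.8 CPM with the treatment (log2 difference -0.52, SE 0.15), and Ier3 (-0.64, SE 0.24), whose difference was -0.32 without PBS 1.

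The 7 genes that DESeq2 called lower were Fcgrt, Hspa1a, Hspa1b, Gaa, Maged1, Ccl4 and Atf3, of which Gaa (adjusted p = 0.0733) and Ccl4 (0.148) were not called by DESeq2 without PBS 1. Fcgrt, the neonatal Fc receptor that recycles IgG and albumin, measured 57.4, 35.6 and 48.3 CPM with PBS and 20.5, 23.03 and 20.2 CPM with the treatment. The treated mice lay close together below all PBS mice, and the log2 difference was -1.14 (SE 0.19, DESeq2 adjusted p = 0.000155), or -0.97 without PBS 1. Gaa, the lysosomal enzyme that breaks down glycogen, measured 30.7, 22.3 and 22.9 CPM and 14.98, 12.9 and 13.9 CPM (log2 difference -0.85, SE 0.18). Maged1, an adaptor of the MAGE family, measured 5.42, 5.21 and 6.37 CPM and 1.78, 2.95 and 2.06 CPM (log2 difference -1.33, SE 0.27). Another 3 genes of the 12 lower ones, outside the lists, were called by no tool on these 6 libraries: the growth factor gene Pdgfb (log2 difference -1.19, SE 0.29), the chloride channel family gene Ttyh2 (-0.96, SE 0.23), which DESeq2 called without PBS 1 (adjusted p = 0.0453), and Niacr1, the niacin receptor gene, which had PBS values of 65.2, 71.01 and 67.1 CPM and treated values of 38.8, 49.8 and 47.7 CPM (log2 difference -0.58, SE 0.14).

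Hspa1a and Hspa1b, adjacent genes for almost the same inducible HSP70 chaperone, had the largest differences among the called genes. Hspa1a measured 13.8, 2.91 and 4.81 CPM with PBS and 1.01, 0.376 and 0.663 CPM with EnzR EVs plus HDL NPs, and Hspa1b 22.4, 2.85 and 5.23 CPM and 0.770, 1.00 and 0.737 CPM. PBS 1 was by far the highest mouse for both. The log2 differences were -3.25 (SE 0.64) and -3.46 (SE 0.76), and without PBS 1 they were -2.46 and -2.25. Reads of the 2 genes cannot always be told apart, so they count as 1 observation. Over 15 tested heat shock genes 0 were higher and these 2 were lower at an unadjusted p under 0.05, with a median of -0.21, or -0.07 without PBS 1.

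Immediate-early genes, which are switched on within minutes of a stimulus, leaned lower. Of 29 tested 0 were higher and 7 lower at an unadjusted p under 0.05, with a median log2 difference of -0.39, and without PBS 1, where 2.29% of tested genes were higher and 2.46% lower, the count was 4 and the median -0.13. Atf3, a stress-induced repressor, measured 92.5, 86.4 and 102.6 CPM with PBS and 45.4, 62.1 and 62.1 CPM with the treatment. Its log2 difference of -0.73 (SE 0.16, DESeq2 adjusted p = 0.0294) was -0.74 without PBS 1. Jun differed by -0.96 (SE 0.34), and of its PBS values of 318.5, 120.3 and 139.0 CPM that of PBS 1 stood apart. Without it the difference was -0.38. Fos differed by -0.50 (SE 0.19), and Dusp2, a phosphatase that acts on MAP kinases, by -0.79 (SE 0.26), or -0.47 without PBS 1. Among 21 unfolded protein and integrated stress response genes 0 were higher and 1 lower, Ppp1r15a (log2 difference -0.59), which differed by -0.31 without PBS 1, where the count was 0.

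The HDL NPs act on cholesterol, so genes of sterol handling were examined. Of 25 tested sterol synthesis and SREBP2 target genes 0 were higher and 2 lower at an unadjusted p under 0.05, with a median log2 difference of -0.26. Mvk, the mevalonate kinase of the pathway, measured 10.8, 5.51 and 5.35 CPM with PBS and 3.67, 5.02 and 3.83 CPM with the treatment. PBS 1 was well above the other PBS mice, and the log2 difference of -0.73 (SE 0.32) was -0.37 without it. The master regulator Srebf2 differed by -0.56 (SE 0.29), or -0.10 without PBS 1, and the median of the list was then -0.02 with 0 genes lower.

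Genes of cholesterol efflux and LXR, the nuclear receptor that senses oxysterols, behaved differently with respect to that library. Of 26 tested 0 were higher and 6 lower, and without PBS 1 the counts were 1 and 6, with medians of -0.17 and -0.13. Apoe, which accepts effluxed cholesterol, measured 165.2, 205.6 and 269.0 CPM with PBS and 99.6, 157.9 and 105.2 CPM with the treatment. The groups did not overlap, and the log2 difference was -0.82 (SE 0.23, DESeq2 adjusted p = 0.137), or -0.96 without PBS 1 (DESeq2 adjusted p = 0.00115). Abca1, the efflux pump, measured 38.5, 49.9 and 68.3 CPM and 33.1, 32.6 and 39.6 CPM, which overlapped. Its log2 difference was -0.58 (SE 0.21), or -0.75 in DESeq2 without PBS 1 (adjusted p = 0.0173). With 1 library left out in edgeR it ran from -0.75 to -0.34. In this list DESeq2 called 0 genes on the 6 libraries, and 1 higher and 2 lower without PBS 1. Lpl and Pltp, a lipase and a lipid transfer protein, differed by -0.64 (SE 0.22) and -0.77 (SE 0.27). Scarb1, the receptor of the particles, measured 55.7, 57.3 and 56.9 CPM with PBS and 54.0, 55.0 and 48.2 CPM with the treatment, a log2 difference of -0.11 (SE 0.13). Of 23 genes for metal, heme and oxidative stress responses 0 were higher and 2 lower, Gpx1, a glutathione peroxidase, and Tfrc, the transferrin receptor. Gpx1 measured 1308, 773.9 and 754.2 CPM with PBS and 571.0, 720.4 and 535.4 CPM with the treatment, with PBS 1 highest, and its log2 difference of -0.63 (SE 0.24) was -0.32 without PBS 1.

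Cell cycle genes were read by phase. Of 44 tested G2/M genes 4 were higher and 0 lower at an unadjusted p under 0.05, or 8 higher without PBS 1, and the median log2 difference was 0.18, or 0.21 without PBS 1. Higher values without overlap were found for 15 of them, against 7.04% of all tested genes. Bub1, a spindle checkpoint kinase, measured 54.4, 57.2 and 59.3 CPM with PBS and 80.7, 68.5 and 68.3 CPM with the treatment (log2 difference 0.35, SE 0.13), and Mki67 810.3, 1111 and 1104 CPM and 1567, 1151 and 1254 CPM. No tool called either gene on these 6 libraries. Of 40 S phase genes 0 passed in either direction, with a median log2 difference of -0.09, or 0.04 without PBS 1.

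In the list of adhesion, matrix and egress genes 2 of 39 were higher and 1 lower at an unadjusted p under 0.05. Vcan, the matrix proteoglycan versican, measured 89.9, 58.7 and 52.7 CPM with PBS and 205.3, 105.0 and 184.3 CPM with the treatment. The groups did not overlap, and the log2 difference was 1.30 (SE 0.28, DESeq2 adjusted p = 0.00154), or 1.57 without PBS 1. Thbs1, for the matrix protein thrombospondin-1, measured 1140, 1895 and 1825 CPM with PBS and 1065, 1180 and 1526 CPM with the treatment. The groups overlapped through PBS 1, and the log2 difference was -0.37 (SE 0.23), or -0.56 without it. With 1 library left out in edgeR the difference of Thbs1 ran from -0.56 to -0.23. Among the lysosome and phagocytosis genes 1 of 33 was higher, the high-affinity IgG receptor Fcgr1 (log2 difference 0.84, SE 0.23), and 3 were lower, among them Axl, a receptor for dying cells, with 163.2, 156.1 and 232.6 CPM with PBS and 123.9, 102.4 and 108.8 CPM with the treatment (log2 difference -0.72, SE 0.18, DESeq2 adjusted p = 0.0643, or 0.00546 without PBS 1). Without PBS 1 the lysosome and phagocytosis list held 7 lower, of which DESeq2 called 2.

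Markers of cell types were read in the same way, since in bulk RNA of selected cells fewer cells of a type and less RNA per cell cannot be told apart. Of 14 tested late granulocyte genes 0 passed in either direction, and of 15 monocyte genes 1 was higher. Of 9 early granulocyte genes 3 were lower, or 1 without PBS 1, and Elane, the neutrophil elastase of promyelocytes, measured 326.4, 290.8 and 321.6 CPM with PBS and 255.5, 151.5 and 217.4 CPM with the treatment (log2 difference -0.59, SE 0.19). All 15 tested marrow macrophage genes had negative log2 differences, with a median of -0.43 and 4 lower at an unadjusted p under 0.05, and without PBS 1 the median was -0.63 with 11 lower, 2 of them called by DESeq2. Cd5l measured 58.1, 48.5 and 87.8 CPM with PBS and 48.4, 30.9 and 30.7 CPM with the treatment (log2 difference -0.82, SE 0.26). With 1 library left out in edgeR its difference ran from -1.07 to -0.54. C1qb, a complement subunit of these macrophages, measured 66.9, 49.4 and 72.4 CPM and 45.8, 36.1 and 35.1 CPM (log2 difference -0.69, SE 0.18). The summed level of the macrophage list ran from 1394 to 2506 CPM in PBS mice, lowest in PBS 1, and from 1452 to 1602 CPM in treated mice. Axl and Apoe, named above as lower, are also expressed by these macrophages, and the part of a different macrophage share in them was not tested. The median of B and plasma cell genes was -0.76 with 4 of 15 lower and 0 higher, or -0.57 with 2 lower without PBS 1, and that of platelet genes was -0.64 with 0 passing, or -0.96 with 8 lower without PBS 1, 1 of them called by DESeq2. The summed level of the platelet list ran from 43.9 to 172.6 CPM, with PBS 1 lowest. Xbp1, a transcription factor of the unfolded protein response as well as of plasma cells, made up most of the summed level of the B and plasma cell list, with 158.9 to 172.9 CPM in PBS mice and 158.9 to 190.6 CPM in treated mice. The other 14 tested genes of that list summed to 52.2, 28.5 and 37.4 CPM with PBS and to 36.2, 17.6 and 11.9 CPM with the treatment. Of 12 T and NK cell, 13 erythroid and 12 dendritic cell genes 1 in each list was lower, the erythroid count being 0 without PBS 1, and 1 dendritic cell gene was higher. Of 14 basophil, mast cell and eosinophil genes and 13 genes of stroma and endothelium 0 passed, although 3 of the latter were lower without PBS 1.

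**Figure D4:**
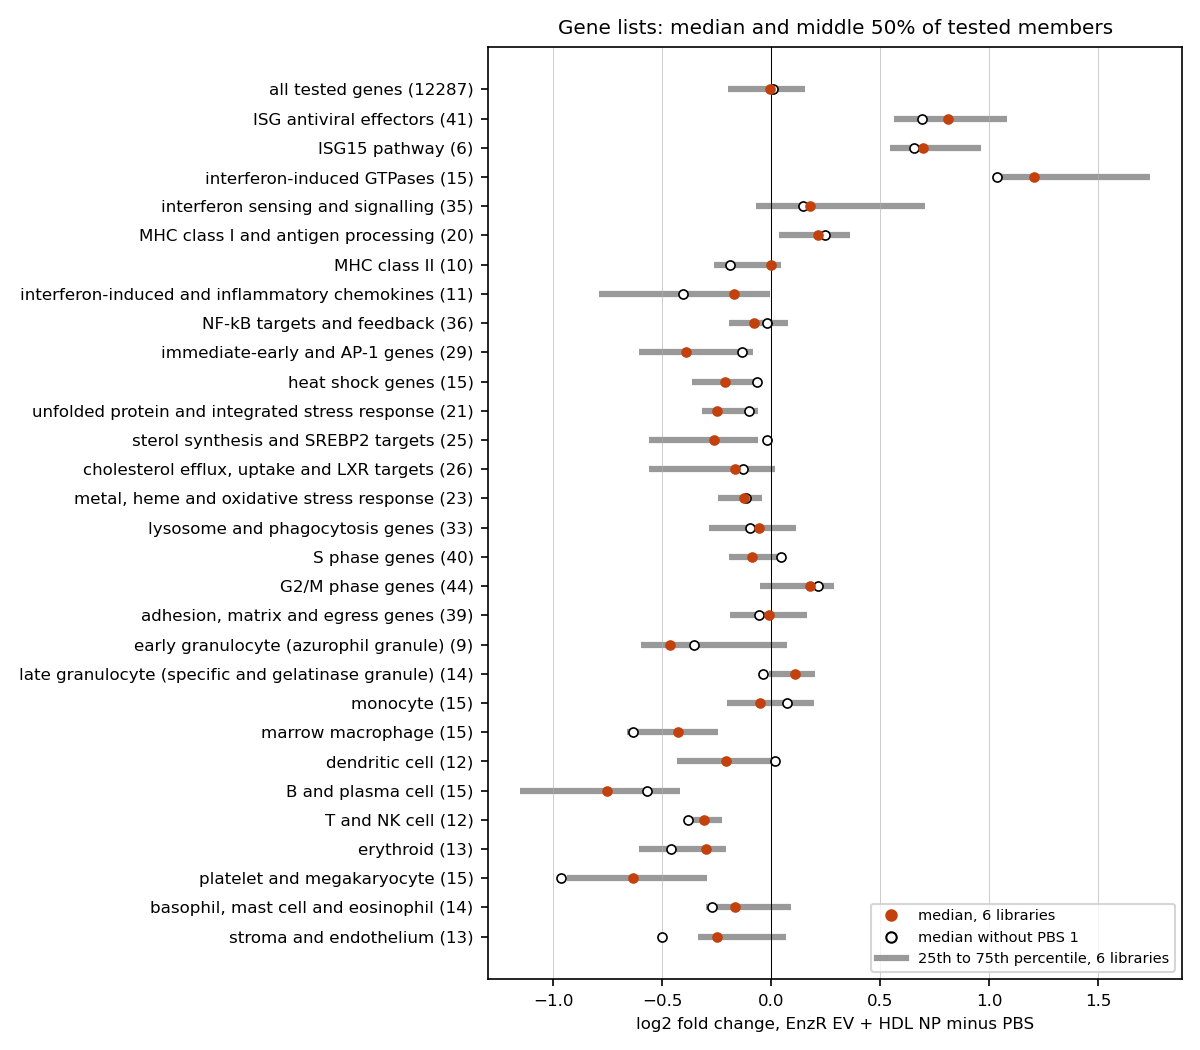
Filled points are the median log2 difference of the tested members of each list (their number in brackets), grey bars the middle 50% of members, and open points the median without PBS 1. The interferon effector, ISG15 and GTPase lists lie at 0.69 to 1.21, the immediate-early and sterol synthesis medians move towards 0 without PBS 1, and the marrow macrophage and platelet medians move away from it.

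The same genes were set beside mice that received EnzR EVs without HDL NPs, in 1 edgeR fit to all 9 libraries. Most of them were picked for their difference between EnzR EVs plus HDL NPs and PBS. That picking alone favours larger differences with HDL NPs than without them, so the sizes side by side do not test an effect of HDL NPs. Both groups share the PBS mice, and the EnzR EV group holds libraries with up to 42.7% of counts in Rn45s and a total as low as 2575776, both in the first EnzR EV mouse, EnzR EV 1. Against PBS, Gbp2 differed by 2.04 on the log2 scale with EnzR EVs plus HDL NPs and by 1.49 with EnzR EVs. The values were 0.99 and 1.11 for Rsad2, 1.53 and 0.74 for Nlrc5, 1.30 and 1.19 for Vcan, -1.14 and -0.40 for Fcgrt, and -0.73 and -1.27 for Atf3. For the 15 GTPases the medians were 1.22 and 0.56, and for the 41 antiviral effectors 0.82 and 0.42. The EnzR EV values turned on single libraries. Gbp2 stood at 16.46 CPM in EnzR EV 1 and at 105.6 and 54.6 CPM in the other EnzR EV mice, and without EnzR EV 1 it differed from PBS by 2.03 with HDL NPs and 1.91 without them. In that fit, added after the data were seen, the medians were 1.203 and 0.851 for the GTPases and 0.81 and 0.70 for the antiviral effectors, and Fcgrt differed by -1.14 and -0.79. Without EnzR EV 2, the EnzR EV medians were -0.03 for the GTPases and 0.155 for the antiviral effectors, and Gbp2 differed by 0.80 in that group.

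The direct test of EnzR EVs plus HDL NPs against EnzR EVs called 0 of 12553 genes in edgeR (percent called 0), with 1452 at an unadjusted p under 0.05 (11.6%), 493 higher (3.93%) and 959 lower (7.64%), and 1 gene in DESeq2 on the same 9 libraries. EdgeR on the 6 libraries of these groups also called 1 gene, as did edgeR without PBS 1. The number at an unadjusted p under 0.05 was 685 without EnzR EV 1, 3910 without EnzR EV 2 and 755 to 1755 without any 1 of the other libraries. Of the 58 genes called against PBS, 9 had an unadjusted p under 0.05 in the 9-library fit, 41 without EnzR EV 2 and 2 to 10 without any 1 of the others. The 58 were called on the same libraries of EnzR EVs plus HDL NPs, so these counts are not an independent test. For Gbp2 the difference was 0.56 (SE 0.52) and for Oasl2 -0.02 (SE 0.33), so intervals of about 2 SE include 0. Without EnzR EV 1 these differences were 0.12 (SE 0.36) and -0.37 (SE 0.19), and without EnzR EV 2 they were 1.24 (SE 0.46) and 0.24 (SE 0.33). Some single genes stood further apart, and those given here were picked after their values were seen. Mx1 differed from PBS by 0.85 with HDL NPs and by -0.003 without them, a difference of 0.85 (SE 0.22, edgeR adjusted p = 0.427). Mndal differed from PBS by 0.82 and -0.13 (difference 0.96, SE 0.37). It measured 13.2 CPM in EnzR EV 1 and 49.9 and 33.6 CPM in the other EnzR EV mice, and without EnzR EV 1 its differences from PBS were 0.82 and 0.22 (difference 0.60, SE 0.23). Ifit1 differed from PBS by 1.14 and 2.04 (difference -0.91, SE 0.26). Thbs1 differed from PBS by -0.37 and -1.38 (difference 1.02, SE 0.22), and C1qb by -0.69 and 0.75 (difference -1.44, SE 0.44). C1qb measured 191.0 CPM in EnzR EV 1 and 45.9 and 66.9 CPM in the other EnzR EV mice, and without EnzR EV 1 its differences from PBS were -0.69 and -0.08 (difference -0.61, SE 0.22). For all 5 the edgeR adjusted p was 0.427, or 0.0757 to 0.788 with 1 library left out, so none of these differences passed the threshold in the 9-library fit.

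**Figure D5:**
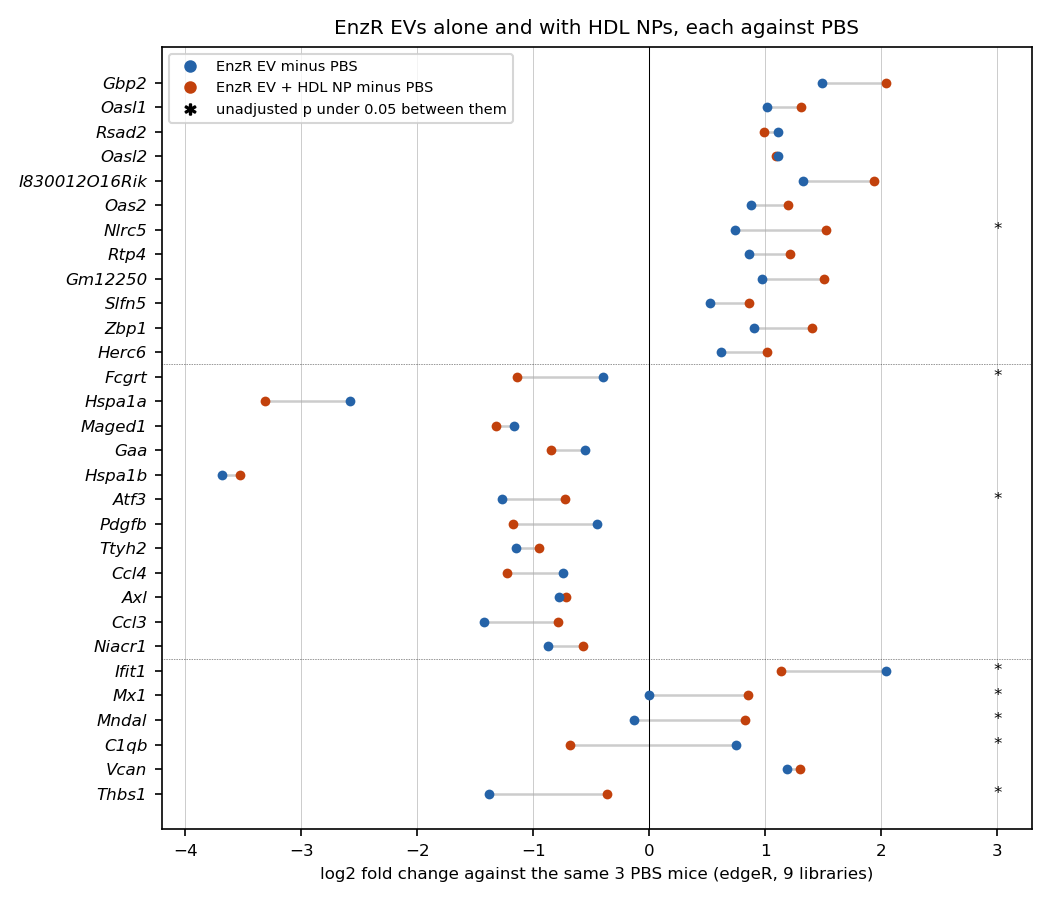
Points are log2 differences from the same PBS mice, with EnzR EVs alone in blue and with HDL NPs in orange, for the 24 genes of the plot of single mice and 6 others picked after their values were seen. The 24 were picked for their difference with HDL NPs, which favours larger differences in orange than in blue. A star marks an unadjusted edgeR p under 0.05 between the groups, no gene passed after adjustment in the edgeR fit to 9 libraries, and without EnzR EV 1 the blue points of Gbp2, Mndal and C1qb would lie at 1.91, 0.22 and -0.08.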

How the data were processed

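Reads came from rRNA-depleted, stranded total RNA libraries of CD11b+ marrow cells. The authors trimmed adapters (cutadapt 1.13), aligned to mm10 with STAR and counted with HTSeq 0.6.1p1, and deposited raw counts per gene; the strand setting and treatment of multi-mapped reads are not given in the sources used here. Counts were tested here with edgeR 4.0.16 (R 4.3.3): the filter of filterByExpr, TMM, a robust quasi-likelihood fit to the 6 libraries and Benjamini-Hochberg adjustment at 0.05. DESeq2 1.42.0 and limma 3.58.1 served as alternatives, with other normalizations, filters, a replicate block and each library left out. The third group entered only the 9-library fits. The scripts were tested on simulated data. PBS replicates differed by more than counting noise. Totals ran from 6006087 to 16611934 counts. The p-values set each group difference against a spread between single mice that the fits partly pool over genes.

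Named genes were the 12 higher and 12 lower with the smallest p whose groups did not overlap at a mean of 5 CPM or more, because 0 were called, plus the 4 smallest p and the highest level in each list, and Thbs1 and Vcan. Others were named after their values were seen. The members, lists and tests were chosen with earlier results of these data known. Of 649 list entries, 645 matched a gene in the counts. Coordinates came from GENCODE M21 (GRCm38) and promoters from RefSeq (GRCm38.p6), by symbol. Some genes counted in the lists are not reported here by name.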

Additional observations from a re-analysis of the deposited data

How the results depend on the processing

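Most of the 82 named genes were chosen for groups that did not overlap or for a small p, so few signs could change. Under 25 alternatives, the 82 named genes kept the sign of their log2 difference in 2039 of 2045 checks. The exceptions were H2-D1, whose difference became positive without EnzR EV + HDL NP replicate 1 (0.0228 in edgeR and 0.0376 in DESeq2) within a range of -0.211 to 0.0228 with 1 library left out in edgeR, and Cd74, whose range was -0.162 to 0.159 and which became negative without PBS 1 (-0.0600 in edgeR and -0.0601 in DESeq2) and without EnzR EV + HDL NP replicate 3 (-0.155 in DESeq2). The median log2 difference of the antiviral effectors, ISG15 pathway genes and GTPases together ran from 0.762 to 1.06, and 34 to 49 of their 62 members were higher at an unadjusted p under 0.05.

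The count of 0 genes called by edgeR held in each edgeR and limma setting tried, with smallest adjusted p-values from 0.0775 (without PBS 1) to 0.999 (9 libraries), whereas DESeq2 called 58 on 6 libraries and 2 on 9. Deviations from the group mean correlated at 0.066, 0.302 and -0.183 for same-numbered mice, and at -0.283 to 0.194 for mice of different numbers. So few mice cannot settle whether the replicate numbers pair them. With the replicate block edgeR called 0 genes (smallest adjusted p 0.57), with 273 higher and 389 lower at an unadjusted p under 0.05. At that level the main fit held 265 higher and 332 lower. The 9-library fits held 131 and 150 in edgeR and 139 and 141 in DESeq2, and scaling by library size alone left 217 lower. Leaving out 1 library gave 181 to 286 higher and 213 to 492 lower. DESeq2 called 51 higher and 7 lower, 1 and 1 on 9 libraries, and 14 to 56 and 4 to 18 with 1 library left out, alternatives chosen after seeing the data. It called 28 higher without PBS 3, 14 higher and 13 lower without EnzR EV + HDL NP replicate 1, 18 higher and 4 lower without replicate 3 of that group, and 18 lower without PBS 1. Against EnzR EVs, DESeq2 on 9 libraries and edgeR on the 6 libraries of those groups each called 1 gene, and edgeR called 0 with 9, or 1 without PBS 1. Leaving out each of the 9 libraries in turn was also added after seeing the data. It gave 685 to 3910 genes at an unadjusted p under 0.05 in that comparison, lowest without EnzR EV 1 and highest without EnzR EV 2, and the differences ran from -0.302 to 0.0487 for Rsad2, -0.147 to 0.539 for Vcan and -0.368 to 0.238 for Oasl2. The differences of EnzR EVs from PBS ran from -0.222 to 0.102 for Mx1, -0.554 to 0.217 for Mndal and -0.0760 to 1.14 for C1qb, between the fits without EnzR EV 1 and without EnzR EV 2. The share of called promoters with the ISRE core was 63.2% in 250 bases and 44.7% in 100. The cause of these shifts was not tested. At 0.499 CPM for 3 counts in PBS 1, differences in genes near 1 CPM were not resolved.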
